A study of Homo sapiens with 9 samples.

Results

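The keratins and the other intermediate filament genes were followed in HEK293 cells that carried wild-type or mutated MEK1. Members were all probes whose gene name on the array was KRT followed by a number, with or without a letter, or was VIM, DES, GFAP, PRPH, INA, NES, SYNM, NEFL, NEFM, NEFH, LMNA, LMNB1 or LMNB2. The rule found 69 genes, 56 keratins and 13 others, measured by 86 of the 50598 probes on the array. HEK293 is an established line of human embryonic kidney cells, and MEK1 is the kinase that activates ERK. The 3 stable lines, here called WT, F53S and K57N cells, expressed HA-tagged MEK1 as the wild type, with the RASopathy mutation F53S or with the cancer mutation K57N. All 3 lines were transfected with the same type of pQCXIP vector, selected with puromycin and harvested at steady state, and they kept their own MEK1. Each line had 3 arrays from separate experiments. The titles of all 9 name HEK293, while the source names of WT replicates 2 and 3 read HEK294 and HEK295, and these were taken as HEK293 by their titles. The sources used here do not give how often each line was derived or whether it is a clone, so the effect of a mutation and other differences between the lines cannot be told apart.

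Intermediate filaments are built from rod-shaped proteins that coil around each other. Keratins of epithelia pair an acidic type I with a basic type II chain, such as KRT18 with KRT8 in simple epithelia or KRT14 with KRT5 in the basal layer of skin. Vimentin (VIM), desmin (DES), GFAP and peripherin (PRPH) form type III filaments in mesenchymal, muscle, glial and peripheral nerve cells, the neurofilament chains NEFL, NEFM and NEFH and alpha-internexin (INA) fill axons, and the lamins line the inside of the nuclear envelope. HEK293 cells are known for making simple epithelial keratins, vimentin and neurofilament chains side by side.

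The clearest differences were in type I keratin genes that lie near each other, which were lower in K57N cells. KRT14, the type I keratin of basal keratinocytes, fell by 2.14 on the log2 scale (SE 0.44) in K57N cells against WT at the brighter of its 2 tested probes. The other probe, whose signal was near background, differed by 0.17 and the mean of both by -0.99 (adjusted p 0.536). The call was lost in 8 of 9 fits without 1 array. KRT17, a keratin of stressed and wounded epithelia, and KRT42P, a type I keratin pseudogene, were also lower in all 3 K57N arrays than in any other array, and passed the test once the slide was part of the fit. KRT79, a type II keratin of the hair follicle opening and sebaceous duct, was well above background in K57N cells alone. No filament gene was called in F53S cells. Vimentin, desmin, the lamins and the simple epithelial keratins were not called in either mutant line.

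The probes of KRT14, KRT17 and KRT42P, which belong to 1 family and lie near each other, are shown because the main values rest on them. A stretch of 30 bases is shown from each 60-base probe, which is bases 11 to 40 for KRT14, 21 to 50 for KRT17 and 31 to 60 for KRT42P. Capitals mark the longest run that the probe shares with either of the other two probes.
KRT14: aagatggcagAGAAGAACCgcaaggatgcc
KRT17: gatggagcagcAGAACCAggaatacaaaat
KRT42P: ggaggacctggtctacctgaAGAAGAACCa
The KRT14 and KRT42P probes shared a run of 9 bases and matched at 28 of 60 positions at best. The KRT14 and KRT17 probes matched at 21 positions, and the KRT17 and KRT42P probes at 23. This compares the letters of probes, and binding of a probe to the transcripts of related genes was not tested. On hg19, the probes lay at chr17:39740013-39740072 for KRT14, chr17:39776976-39777035 for KRT17 and chr17:39786678-39786737 for KRT42P.

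The arrays were read with 1 dye, and a value below is the log2 of a spot's processed signal minus the 75th percentile of its array, so that 0 is the signal at that percentile. Replicate 1 of each line was on slide 1, and replicates 2 and 3 were on slide 2. Slide 1 was dimmer, with 75th percentiles of 243 to 373 against 691 to 814 on slide 2, and had 23711 to 26110 probes well above background against 27114 to 29319. Probes entered the test if all 3 arrays of some line had them well above background, which left 19209 genes. MAP2K1, the gene of MEK1, had means of 2.38 in WT cells, 2.46 in F53S cells and 2.86 in K57N cells, and its probe cannot tell the mutated from the cell's own transcript. Of 9 epithelial markers, 5 were tested, 0 were called, and ESRP1 was on no array well above background. Their summed signal, in multiples of the 75th percentile, was 4.0 to 4.41 in WT cells, 4.41 to 4.92 in F53S cells and 3.79 to 3.98 in K57N cells. Of 5 kidney lineage markers, 4 were tested and 0 called, with sums of 6.82 to 7.16, 7.48 to 8.77 and 7.25 to 20.5. All 4 blood markers were tested with 0 called, and their sums ran from 0.87 to 1.65, 0.876 to 1.52 and 0.985 to 1.17.

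Of the 69 filament genes, 46 were well above background on at least 1 array, and the 23 that never were are all keratins. The test included 32 genes, of which 22 were keratins. Tested were 5 of 7 simple epithelial keratins, 3 of 8 basal and stress keratins, 5 of 13 other keratins of stratified epithelia, 1 of 9 inner root sheath keratins, 6 of 17 hair keratins and both ungrouped ones, KRT42P and KRT222. Among the others, NEFM, INA and GFAP were not tested. The untested keratins were KRT20 and KRT23 of simple epithelia, KRT5, KRT6A, KRT6B, KRT6C and KRT16 of basal or stressed layers, and KRT1, KRT2, KRT4, KRT12, KRT13, KRT24, KRT76 and KRT77 of other stratified epithelia. They also included KRT25, KRT26, KRT27, KRT28, KRT71, KRT72, KRT74 and KRT75 of the root sheath and KRT32, KRT33B, KRT34, KRT35, KRT36, KRT37, KRT38, KRT39, KRT40, KRT82 and KRT84 of hair. No member probe was saturated on any array.

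A call required more than 2-fold at an adjusted p below 0.05. In K57N against WT cells, 1 of the 32 tested filament genes was called lower, where 0.687% of all genes tested were, and 0 were called higher, where 1.51% were. The called gene was KRT14. Its values were 0.31, -0.63 and -0.70 in WT, -0.17, -1.40 and -1.45 in F53S, and -1.94, -2.94 and -2.57 in K57N cells. All 3 K57N values lay below all WT and F53S values. The difference from WT of -2.14 corresponds to a 4.42-fold lower signal, with an adjusted p of 0.0455. It was -2.25 on slide 1 and -2.09 on slide 2, and with the slide in the fit the adjusted p was 7.64e-05 (SE 0.13). In 8 of the 9 fits without 1 array the call was lost, the exception being the fit without F53S replicate 1, while the difference stayed between -1.82 and -2.42. A second KRT14 probe, at chr17:39738706-39738765 and well above background on 6 arrays, differed by only 0.17 (adjusted p 0.99). Its means of -4.49 in WT and -4.32 in K57N cells were near the lowest signals well above background, which left little room for a fall. The mean of both probes gave -0.99 (adjusted p 0.536). Normexp, another background correction, was run with an added offset of 50, which shrinks differences between dim signals. With it, the first probe gave -1.63 and the call was lost (adjusted p 0.143).

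Because the replicates of a line were spread over both slides, a fit with the slide as a term is given beside the one without. With the slide in the fit, 3 of 32 filament genes (9.38%) were called lower in K57N than in WT cells, against 1.89% of all genes tested, and 1 (3.12%) was called higher, against 2.6%. The genes that were lower were KRT14, KRT17 and KRT42P, and the one that was higher was KRT79. KRT79 was well above background on the K57N arrays alone and entered the test through them. Such entry favors a high K57N value, so nothing is read from its call. Without it, 0 of 31 genes were called higher. The fit with the replicate number as a block called the same 4 genes.

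KRT17 read 0.69, -0.38 and -0.38 in WT, 0.53, -0.83 and -0.68 in F53S, and -1.22, -1.35 and -1.45 in K57N cells. The K57N arrays were again the lowest of all. The difference from WT was -1.32, a 2.49-fold lower signal. Its adjusted p was 0.179 (SE 0.41) without the slide, 0.00678 (SE 0.22) with it and 0.0152 with the replicate block. The fall measured -1.91 on slide 1 and -1.02 on slide 2.

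KRT42P read -1.67, -2.69 and -2.75 in WT, -2.22, -3.53 and -3.14 in F53S, and -4.04, -4.39 and -4.08 in K57N cells. None of its K57N values overlapped those of the other lines. The difference from WT was -1.80, or 3.48-fold lower. Its K57N values were close to the lowest signals well above background. With normexp, whose offset shrinks differences between such dim signals, the difference was -0.87 (adjusted p 0.542). Without normexp, the adjusted p was 0.057 (SE 0.39) without the slide, 0.00175 (SE 0.22) with it and 0.00385 with the replicate block. The other 2 probes named KRT42P were well above background on 3 and 0 arrays and were not tested.

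**Figure D1:**
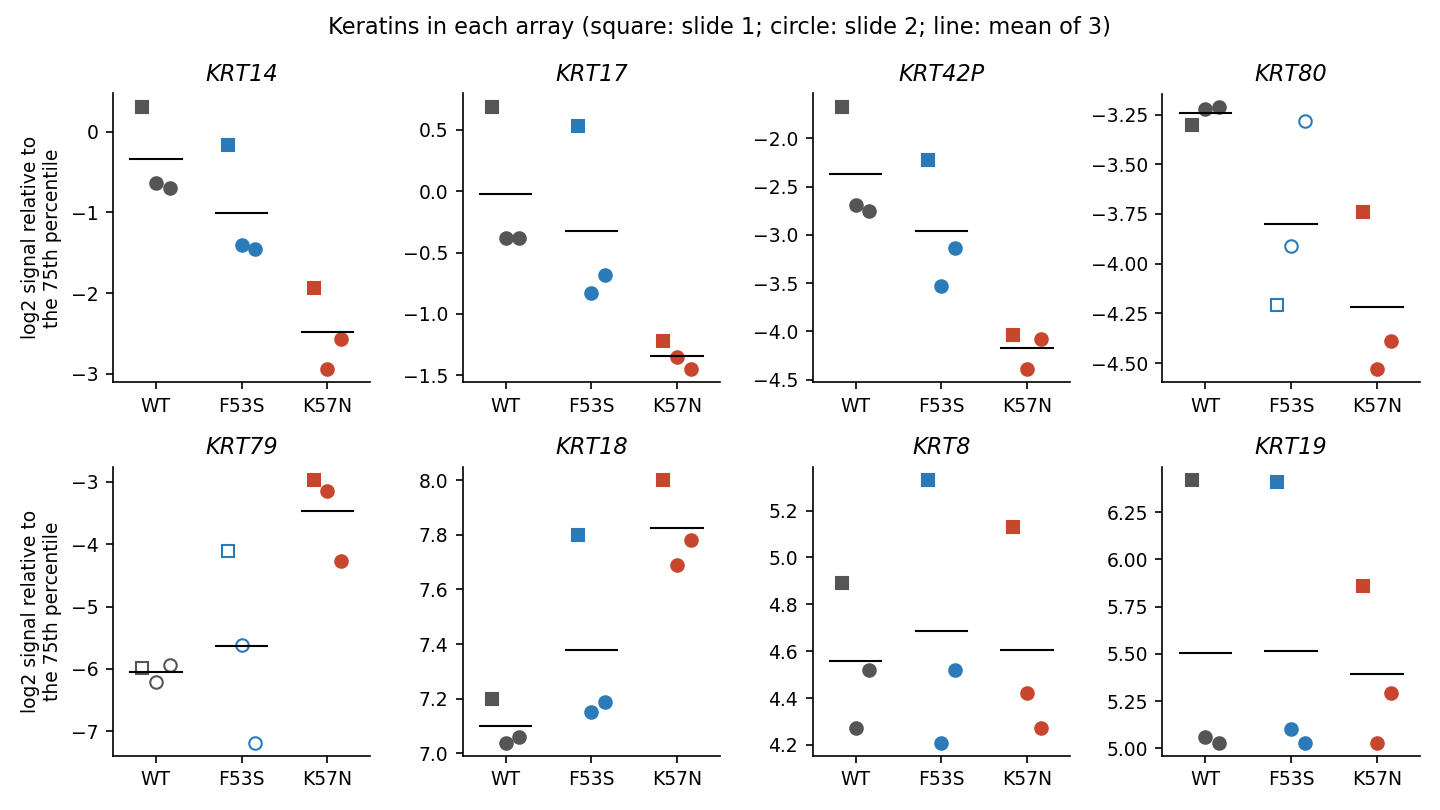
Log2 signal relative to the 75th percentile (y axis) of 8 keratin genes in the 3 lines (x axis), with slide 1 as squares, slide 2 as circles and the mean of 3 arrays as a line. Open symbols mark lines that were not well above background on all 3 arrays. KRT14, KRT17 and KRT42P lie lowest in all 3 K57N arrays, KRT79 and KRT18 lie above all WT values there, and KRT8 and KRT19 overlap between lines.

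The 3 genes were compared with their neighbors in the keratin clusters. The array held 29 keratin genes on chromosome 17, which carries the type I cluster, and 27 on chromosome 12, which carries the type II cluster and KRT18. Of the keratins measured here, KRT14, KRT16, KRT17 and KRT42P are the last in order on chromosome 17. KRT16, between KRT14 and KRT17, was on no array well above background. On the other side of KRT14 lie KRT15, KRT19 and KRT9, whose differences of K57N from WT were 0.21, -0.11 and 0.00, with adjusted p values of 0.487, 0.674 and 0.997 with the slide in the fit. KRT15 is another type I keratin of basal cells. The type II partner of KRT14, KRT5, was on no array well above background. The partners of KRT17, KRT6A, KRT6B and KRT6C, were not tested.

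**Figure D2:**
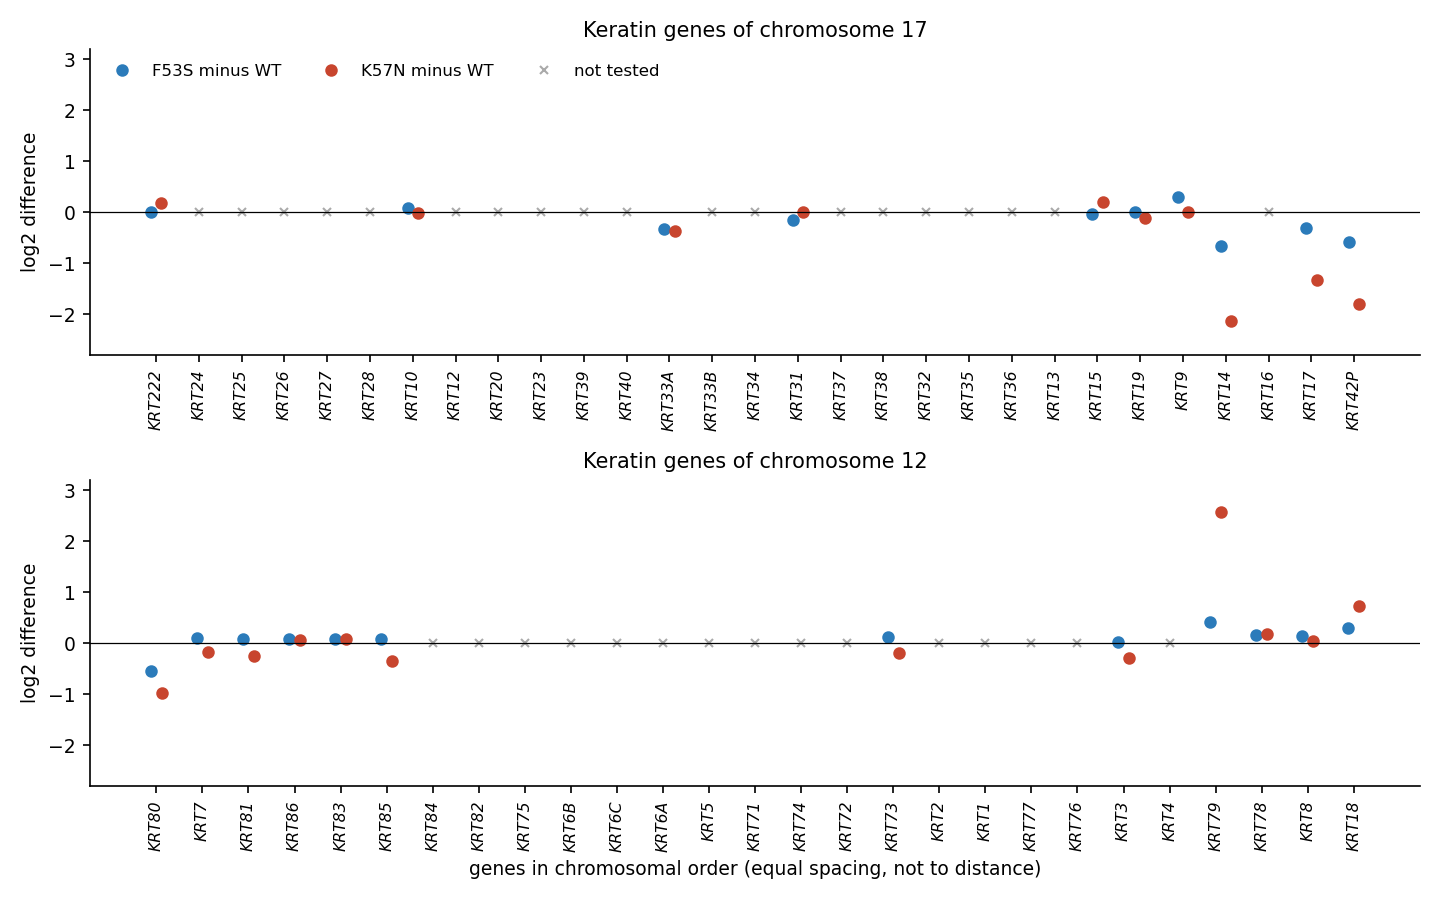
Log2 difference from WT (y axis) of F53S and K57N cells for the keratin genes of chromosomes 17 and 12 in chromosomal order (x axis, equal spacing), from 3 arrays per line, with untested genes as crosses at 0. The K57N values of KRT14, KRT17 and KRT42P, at -2.14, -1.32 and -1.80, stand at the end of the chromosome 17 cluster, and KRT79, whose WT signals were below background, is at 2.58 on chromosome 12.

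Markers of keratinocytes were checked beside this group. Of 6 keratinocyte markers, TP63 and SPRR1B were on no array well above background, and the 1 that was tested, SPRR1A, differed by -0.04 between K57N and WT cells. The summed signal of the 6 markers was 1.48 to 3.89 in WT cells, 1.93 to 4.37 in F53S cells and 1.8 to 3.44 in K57N cells, so the lines overlapped.

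KRT79 read -5.99, -6.21 and -5.93 in WT, -4.11, -5.61 and -7.18 in F53S, and -2.97, -3.15 and -4.26 in K57N cells. All 3 K57N arrays had it well above background, and no WT or F53S array did. The measured mean was -6.05 in WT and -3.46 in K57N cells. Because the WT value is only a limit, set on each array by the lowest signal well above background, the K57N signal is given as at least 2.41-fold higher on the scale of the processed signal. The fit gave an adjusted p of 0.112 without the slide, 0.0192 with it and 0.022 with the replicate block, which support nothing further, since the gene passed the filter only through the line where it was high. With normexp the difference was 0.75 (adjusted p 0.738). The offset of normexp shrinks differences between dim signals, so this value and that limit are not on the same scale. Its neighbors KRT78 and KRT8 differed by 0.18 and 0.05.

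KRT79 is the only one of these called genes whose promoter sequence is at hand. The 250 bases before its RefSeq start on GRCh38, on the minus strand, are chr12:52834312-52834561. They held none of the motifs TATAAA (gene strand), TGACTCA (AP-1), GGGCGG (SP1) and CCGGAAG (ETS), the last 3 searched on both strands, so none is in capitals.
KRT79: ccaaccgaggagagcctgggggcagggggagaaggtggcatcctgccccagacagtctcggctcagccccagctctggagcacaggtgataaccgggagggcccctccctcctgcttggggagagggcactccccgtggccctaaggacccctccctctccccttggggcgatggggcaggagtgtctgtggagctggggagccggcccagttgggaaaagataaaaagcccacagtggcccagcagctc
For 42 members with an entry, TATAAA stood in 19 promoters, where 7.2% of 27305 promoters held it. GGGCGG stood in 10 of the 42, against 42.3% of all, CCGGAAG in 2, against 8.8%, and TGACTCA in 0, against 4.2%. The motifs do not overlap each other in letters, and a match is only a description of these windows.

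The simple epithelial keratins as a group had a median difference of -0.11 between K57N and WT cells, beside -0.05 over all genes tested, with 0 of 5 called in either direction. Without WT replicate 1 that median was 0.24. KRT18, the type I chain of this pair, read 7.20, 7.04 and 7.06 in WT, 7.80, 7.15 and 7.19 in F53S, and 8.0, 7.69 and 7.78 in K57N cells. Its K57N values lay above all WT values. The difference of 0.72 (1.65-fold) had an adjusted p of 0.139 without the slide and 0.00566 with it (SE 0.12), and was below the 2-fold limit. A second KRT18 probe differed by 0.85 (adjusted p 0.0582 without the slide, 0.0053 with it). KRT8, its type II partner, read 4.89, 4.27 and 4.52 in WT and 5.13, 4.42 and 4.27 in K57N cells. These values overlapped, and the difference was 0.05 (SE 0.14, adjusted p 0.848 with the slide). Of 2 further KRT8 probes, one differed by 0.12. The other, at chr12:53343241-53343300 and thus near the KRT18 probes at chr12:53345577-53345636 and chr12:53346116-53346554 rather than near the KRT8 probe used here at chr12:53291026-53291085, differed by 0.46 (adjusted p 0.0555 with the slide).

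KRT80, a type II keratin of differentiating epithelia, read -3.30, -3.22 and -3.21 in WT, -4.21, -3.91 and -3.28 in F53S, and -3.74, -4.53 and -4.39 in K57N cells. The K57N values lay below all WT values but overlapped those of F53S cells. The difference from WT was -0.98, or 1.97-fold lower, with an adjusted p of 0.15 without the slide and 0.0473 with it. On slide 2 alone it was -1.25 (adjusted p 0.0201) and on slide 1 it was -0.43. KRT7 and KRT19, found in ducts and other simple epithelia, differed by -0.18 and -0.11, with adjusted p values of 0.987 and 0.992.

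At any fold, with the slide in the fit, 3 of 32 filament genes (9.38%) passed an adjusted p of 0.05 as higher, against 8.99% of all genes, and 4 (12.5%) as lower, against 10.3%. These were KRT18, KRT79 and NEFL, and KRT14, KRT17, KRT42P and KRT80. The same genes were those whose 3 K57N values lay all above or all below the WT values, where 10.5% and 12.2% of all genes did so. Without KRT79, 2 of 31 (6.45%) passed as higher. By these wider rules the members' shares were close to those of all genes.

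**Figure D3:**
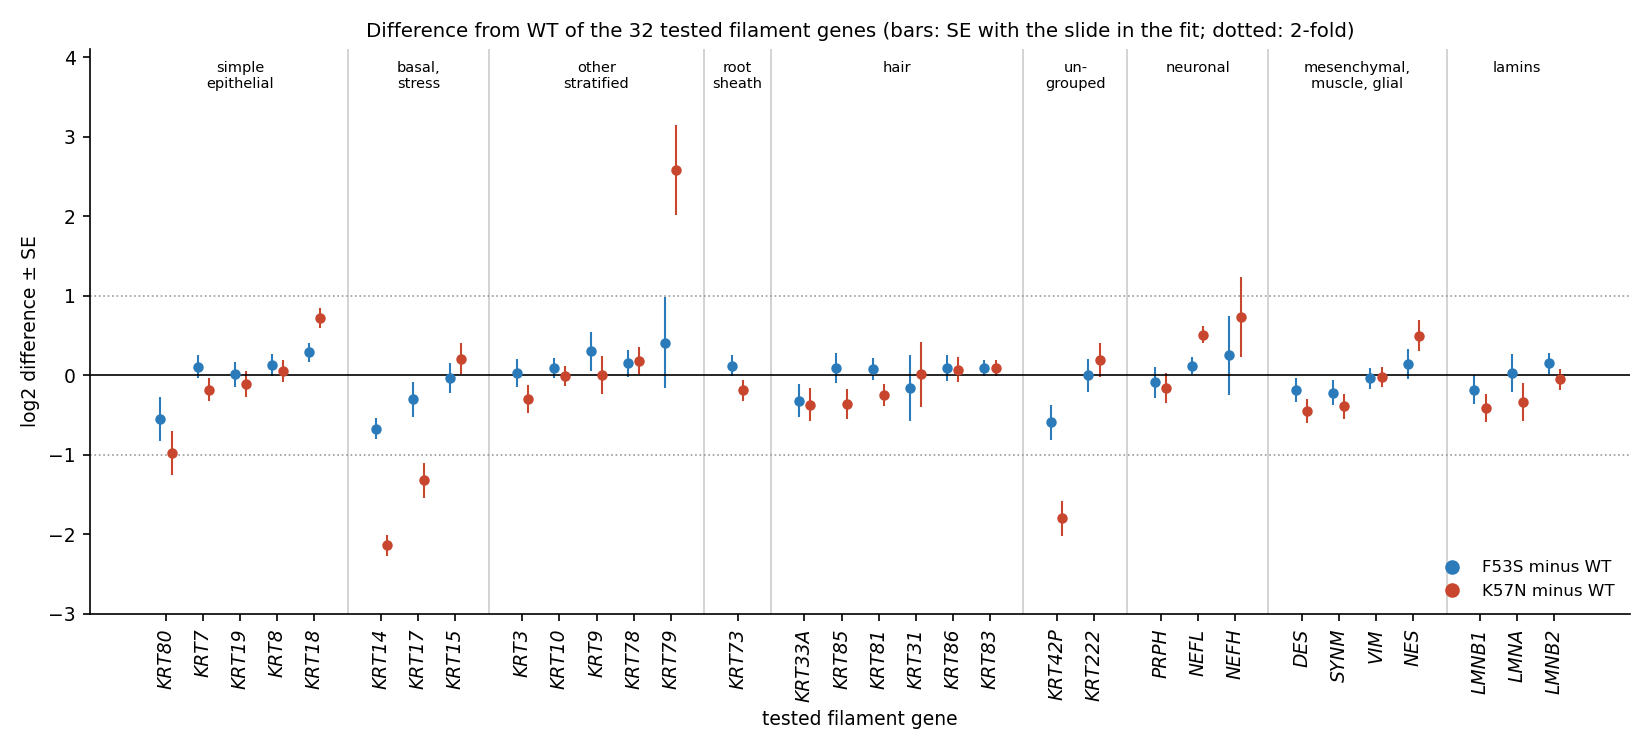
Log2 difference from WT (y axis) of the 32 tested filament genes (x axis) by filament group, for F53S and K57N cells with 3 arrays per line and bars for the SE with the slide in the fit. The dotted lines mark 2-fold. KRT14, KRT17, KRT42P and KRT79 pass these lines in K57N cells, where the KRT79 value of 2.58 rests on WT signals below background, and no gene passes them in F53S cells.

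The neuronal filament genes had a median difference of 0.51 between K57N and WT cells over the 3 that were tested, with 0 called. That median was -0.43 on slide 1 and 0.67 on slide 2. NEFL, the light neurofilament chain on which the filament is built, read 3.2, 2.77 and 2.77 in WT, 3.21, 2.93 and 2.96 in F53S, and 3.4, 3.4 and 3.48 in K57N cells. All K57N values lay above all others, by a small margin on slide 1. The difference from WT of 0.51 (1.42-fold) had an adjusted p of 0.224 without the slide and 0.0192 with it. NEFH, the heavy chain, read -2.94, -4.25 and -4.38 in WT, -2.0, -4.49 and -4.32 in F53S, and -3.36, -3.31 and -2.71 in K57N cells. The slides gave opposite signs, -0.43 on slide 1 and 1.30 on slide 2, and the pooled difference was 0.73 (SE 0.67, adjusted p 0.818). On slide 2 alone, NEFH was called higher in K57N cells (2.47-fold over WT, adjusted p 0.018). PRPH read 0.65, -0.58 and -0.47 in WT and -0.12, -0.44 and -0.31 in K57N cells, and differed by -0.16 (adjusted p 0.983). NEFM, the middle chain, had means of -4.13 in WT cells, -4.14 in F53S cells and -3.96 in K57N cells, and INA had means of -4.52, -4.72 and -4.62, and no line had either gene well above background on all 3 arrays.

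Of 7 neuron markers, ELAVL3 and ELAVL4 were on no array well above background, and 3 were tested. With the slide in the fit, K57N minus WT was 1.09 for TUBB3, which was called higher (adjusted p 0.00275), and -1.90 for MAP2, which was called lower (adjusted p 0.00019). SNAP25, the third, differed by -0.85 (adjusted p 0.0132), within the 2-fold limit, so that 2 of the 3 passed the adjusted p as lower. Without the slide 0 were called, with adjusted p values of 0.747 for TUBB3, 0.0516 for MAP2 and 0.0713 for SNAP25. The sum of the 7 markers was 4.34 to 11.2 in WT cells, 2.76 to 13.7 in F53S cells and 5.59 to 16.7 in K57N cells. Their part in the values of the neurofilament genes was not tested.

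The mesenchymal, muscle, glial and progenitor filaments had a median difference of -0.20 between K57N and WT cells over 4 tested genes, with 0 called. VIM read 6.87, 6.36 and 6.29 in WT, 6.79, 6.35 and 6.26 in F53S, and 6.48, 6.42 and 6.55 in K57N cells. The lines overlapped, and the difference from WT was -0.02 (SE 0.13 with the slide, adjusted p 0.924). NES, the nestin of neural and muscle progenitors, read 1.0, -0.20 and -0.09 in WT, 1.23, -0.06 and -0.04 in F53S, and 0.96, 0.59 and 0.67 in K57N cells. On slide 2 both K57N arrays were higher than the other lines, by 0.78 over WT (1.71-fold, adjusted p 0.0046), and on slide 1 the difference was -0.04. A second NES probe differed by 0.47, close to the 0.50 of the first, and neither passed the test with the slide (adjusted p 0.159 and 0.113). DES, the muscle desmin, differed by -0.45 (adjusted p 0.791) and SYNM, the synemin that links filaments of muscle and glia, by -0.39 (adjusted p 0.814). GFAP, the filament of astrocytes, was well above background on 1 array, K57N replicate 3.

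**Figure D4:**
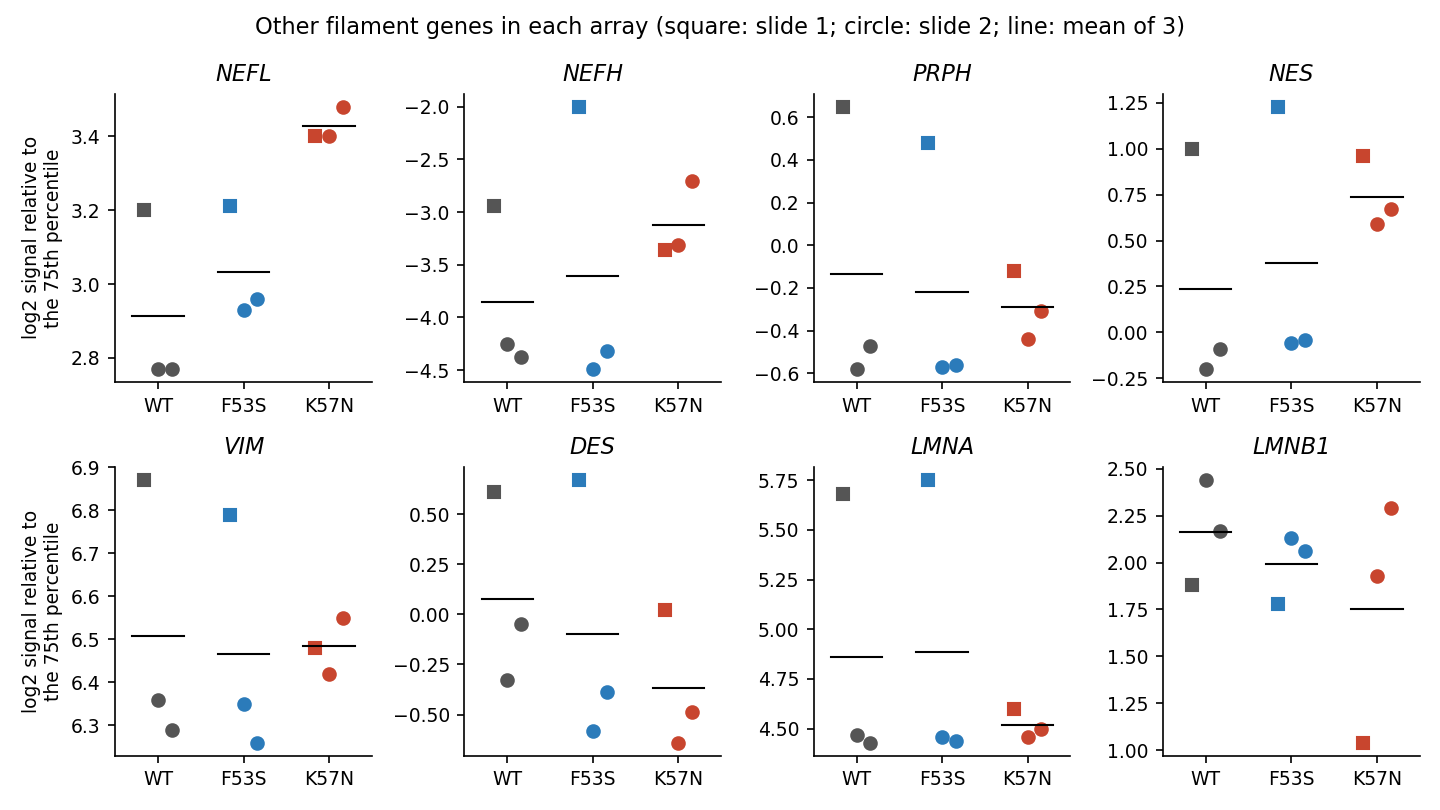
Log2 signal relative to the 75th percentile (y axis) of 8 filament genes other than keratins in the 3 lines (x axis), with slide 1 as squares, slide 2 as circles and the mean of 3 arrays as a line. NEFL is highest in the K57N arrays at 3.4 to 3.48, the slide 2 arrays of NES and NEFH are higher in K57N cells, and VIM overlaps between lines.

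Of 7 fibroblast markers, 2 were tested, which were COL1A1 and PDGFRA, and COL1A2, PDGFRB and DCN were on no array well above background. With the slide in the fit, COL1A1 was called lower in K57N cells, with a difference from WT of -1.19 (adjusted p 0.00337). PDGFRA differed by 0.28 (adjusted p 0.379). Without the slide 0 were called, with an adjusted p of 0.101 for COL1A1. The sum of the 7 was 0.947 to 1.52 in WT cells, 0.927 to 1.21 in F53S cells and 0.599 to 0.666 in K57N cells. Its part in the values of the mesenchymal filament genes was not tested.

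The lamins had a median difference of -0.34 between K57N and WT cells, with 0 of 3 called. The median was -0.84 on slide 1, 0.03 on slide 2 and 0.07 without WT replicate 1. LMNA, the gene of lamins A and C, read 5.68, 4.47 and 4.43 in WT, 5.75, 4.46 and 4.44 in F53S, and 4.60, 4.46 and 4.50 in K57N cells. The 6 arrays of slide 2 were almost level, with a difference of 0.03 there, and on slide 1 the difference was -1.08. The other LMNA probes differed by -0.10 and -0.50. LMNB1, the B-type lamin used as a marker of dividing cells, differed by -0.41 (adjusted p 0.742) and LMNB2 by -0.05 (adjusted p 0.993). A second LMNB1 probe differed by 0.15.

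Other tested keratins stayed close to 0 in K57N cells. The 5 other stratified keratins had a median of 0.00, which was 0.36 without WT replicate 1, and those other than KRT79 ran from -0.30 for KRT3 to 0.18 for KRT78. KRT10, the type I keratin of the layers above the basal one, differed by -0.01. The 6 hair keratins had a median of -0.12, which was 0.15 without WT replicate 1, and ran from -0.37 for KRT33A to 0.09 for KRT83. KRT33A also entered the test through the K57N line only, with 2 WT and 2 F53S arrays well above background. KRT73 of the root sheath differed by -0.19 and KRT222 by 0.19.

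In F53S against WT cells, 0 of 32 filament genes were called by limma in either direction, with or without the slide, and 0.0% of all genes tested were. At an unadjusted p under 0.05, 0 members passed without the slide and 3 with it, KRT14 and KRT42P as lower and KRT18 as higher. Of all genes, 0.63% passed that rule as higher and 0.266% as lower without the slide, and 2.49% and 1.59% with it. A t-test, which the paper's methods name for means in general and not for the arrays, also called 0 members. The largest difference in size was -0.67 (1.59-fold) for KRT14, followed by -0.59 for KRT42P and -0.55 for KRT80, and KRT33A differed by -0.32. F53S replicates 2 and 3 of KRT14 lay below both WT arrays of the same slide, and F53S replicate 1 lay below WT replicate 1, with an adjusted p of 0.367 with the slide. KRT17 differed by -0.30 with an adjusted p of 1. KRT79 was well above background on no WT or F53S array, so nothing is read from its value of 0.41. For no member did all 3 F53S values lie above or below all WT values, where 1.67% of all genes lay above and 1.54% below. The medians were 0.11 for simple epithelial keratins, -0.30 for basal and stress keratins, 0.12 for neuronal filaments, -0.11 for the mesenchymal group and 0.03 for lamins, beside 0.02 over all genes. Each of these 5 group medians changed sign in at least 1 fit without 1 array, and without F53S replicate 1 they were -0.35, -0.73, -0.44, -0.24 and -0.22 in that order.

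In K57N against F53S cells, the comparison that bears on whether both mutants differ, 0 of 32 filament genes were called without the slide, where 0.958% of all genes were higher and 0.239% lower. At an unadjusted p under 0.05, 1 was higher, which was KRT79, and 3 were lower, where 4.95% and 5.35% of all genes were. With the slide in the fit, 3 were called lower, where 1.06% of all genes were, and 1 higher, where 1.88% were. The latter was again KRT79, and without it 0 of 31 were called higher. KRT14 differed by -1.48 (SE 0.13, adjusted p 0.000809), KRT42P by -1.20 (SE 0.22, adjusted p 0.0135) and KRT17 by -1.01 (SE 0.22, adjusted p 0.0255). At any fold, 2 members (6.25%) passed as higher with the slide, where 5.93% of all genes did, and 3 (9.38%) as lower, where 7.14% did. The higher ones were KRT18 and KRT79, and without KRT79 1 of 31 (3.23%) was higher. With the replicate block the adjusted p values of KRT14, KRT42P and KRT17 were 0.00279, 0.0233 and 0.0467. The second KRT14 probe, whose signal was near background, went the other way, at 0.91 (adjusted p 0.0795 with the slide). With the mean of both KRT14 probes the difference was -0.28 (adjusted p 0.959), and with normexp that of KRT42P was -0.57 (adjusted p 0.993). KRT79 was at least 2.46-fold higher on the scale of the processed signal, and with normexp it differed by 0.61. Its adjusted p of 0.0459 with the slide and 0.0506 with the replicate block supports nothing further, as no F53S array had it well above background. The F53S value of KRT79 in replicate 1, -4.11, lay above the lowest K57N value of -4.26. On slide 2 alone KRT79 did not pass (adjusted p 0.0541), and NEFH was called higher (2.62-fold, adjusted p 0.0212).

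Genes that tie filaments to cell junctions and to the nuclear envelope were counted from lists of their own. Of 19 desmosome and plakin genes, 14 were tested and 0 were called in any of the 3 comparisons, in either direction, with or without the slide. At any fold, with the slide, 2 of the 14 passed as higher in K57N cells than in WT and 2 as lower, where 8.99% and 10.3% of all genes did, so that the counts say nothing particular of the list. DSP, the desmoplakin that anchors filaments at desmosomes, differed by 0.96 (adjusted p 0.000543, and 0.0572 without the slide). PERP, a desmosomal membrane protein, differed by 0.69 (adjusted p 0.00297), and the plakophilins PKP2 and PKP3 by -0.73 (adjusted p 0.00183) and -0.65 (adjusted p 0.0161). The desmogleins and desmocollins of skin, DSG1, DSG3, DSG4 and DSC1, were on no array well above background. All 12 nuclear envelope genes were tested and 0 were called. At any fold, 1 passed as higher and 1 as lower, close to the same shares of all genes. ZMPSTE24, the protease that matures prelamin A, differed by 0.64 (adjusted p 0.0111) and SYNE2, a nesprin, by -0.42 (adjusted p 0.0281), both with the slide in the fit.

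The 2 slides were also compared as to the difference itself, by a line-by-slide term. For K57N against WT, 8 of 32 members had a difference that changed between the slides at an adjusted p below 0.05, where 14.3% of all genes did, and for F53S against WT 0 did, where 0.0885% did. The 8 were NEFH, LMNA, PRPH, NES, KRT17, KRT3, KRT10 and KRT222. Slide 1 had 1 array per line, so the spread in this test came from the slide 2 pairs alone, and a deviation of a single slide 1 array and an effect of the slide cannot be told apart.

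**Figure D5:**
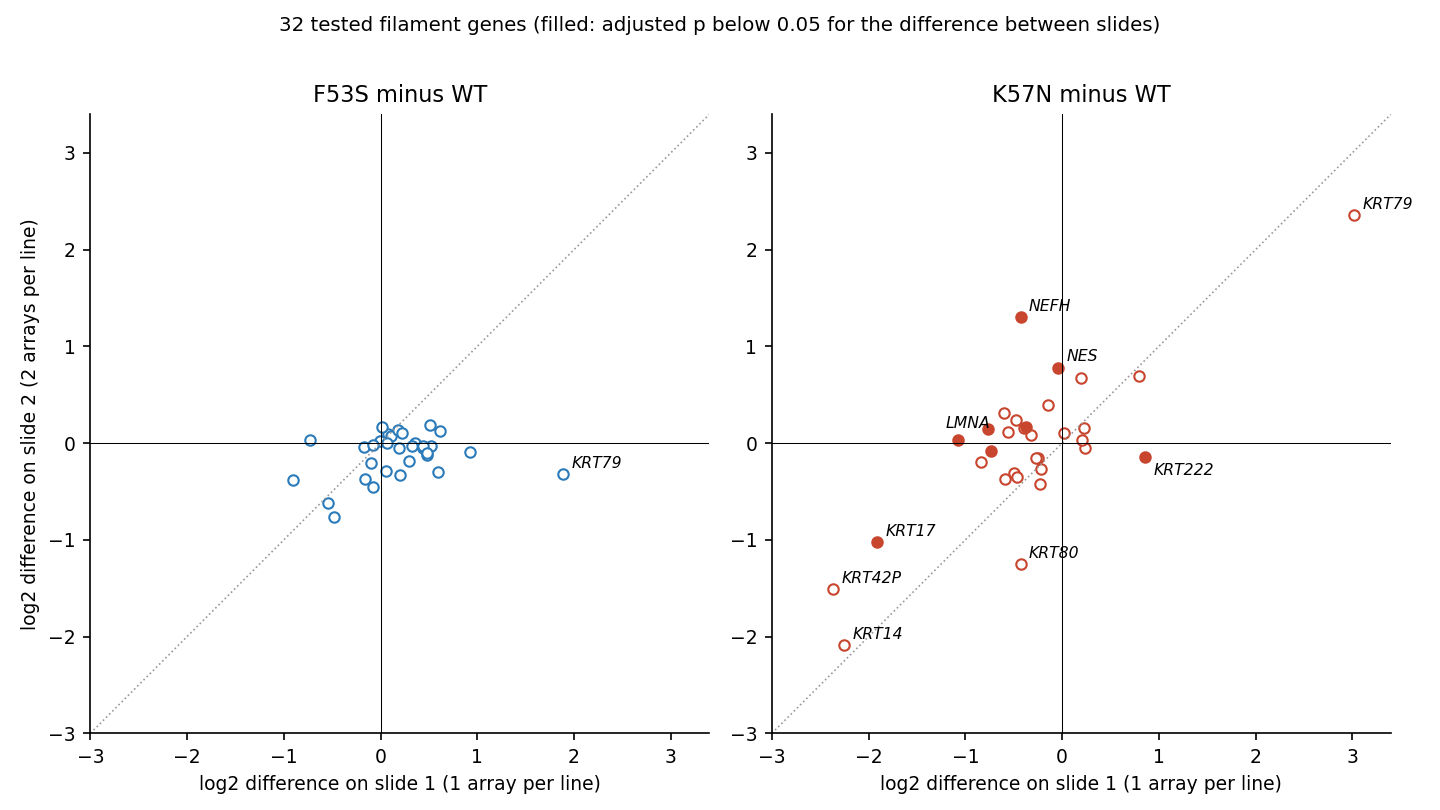
Log2 difference from WT on slide 1 (x axis, 1 array per line) and on slide 2 (y axis, mean of 2 arrays per line) for the 32 tested filament genes, with F53S on the left and K57N on the right and equality as a dotted line. KRT14, KRT17, KRT42P and KRT79 keep their sign on both slides in K57N cells, and NEFH lies at -0.43 on slide 1 and 1.30 on slide 2. Filled points have an adjusted p below 0.05 for the difference between the slides.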

How the data were processed

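RNA of 9 samples, 3 per line, was hybridized to single-dye Agilent arrays. The authors deposited scanner output of Agilent Feature Extraction 10.10.1.1, in which the processed signal is an intensity after background subtraction, and a table of log2 values that equals the log2 of that signal less 1 constant per array within 0.02 for 99.37% to 99.55% of the probes. The normalization between arrays is not given in the sources used here.

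For the values given here, log2 of the processed signal was set relative to the 75th percentile of each array, without control spots and without the 278 to 501 spots per array that the scanner software marked as outliers. Repeated spots were averaged, and a gene was represented by its tested probe with the highest mean. limma 3.58.1 in R 4.3.3 fitted 1 mean per line over 25397 probes, with p adjusted by the Benjamini-Hochberg method. Calls needed more than 2-fold at an adjusted p below 0.05. After removal of the line means, arrays of the same replicate number correlated with r of 0.35 to 0.88 in every pair of lines. The slides alone can give such values, and arrays of unlike number were not compared, so pairing beyond the slides was not tested. The main fit left the pairing out, and the replicate block was run as an alternative. A simulation of K57N against WT gave 200 genes a log2 change of 2. When a slide difference was simulated too, the fit without the slide recovered 54% of them, with 0 false calls. Putting the slide in the fit raised this to 92%, with 3 false calls. Where no slide difference was simulated, the fit without the slide recovered 92%, with 0 false calls. The main fit can thus miss changes of this size where the slides differ. Positions are the array annotation's, on hg19, and promoters are RefSeq's.

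The members, the gene lists, the tests and the alternatives were chosen with earlier results of these data known. Named are all members called in either fit, all tested members outside the keratins, all tested simple epithelial keratins and, per mutant, the 5 other keratins with the largest difference. Alternatives changed 1 choice each, with exceptions. The unadjusted t-test changed both the test and the adjustment, and normexp changed the input signal, the background step and the offset together. The signal was replaced by normexp-corrected intensities (offset 50) or by the deposited log2 values, and the scaling by quantile normalization. Dim probes were kept, or dropped unless all 9 arrays measured them, and a gene's probes were averaged. The replicate block, the slide block, slide 2 alone, pairs of lines, a t-test, and fits without each array in turn were also run. The paper's methods name a t-test or ANOVA for means in general and give no test for the arrays. The number of arrays limits the precision, and p measures the spread between experiments on 1 line each. Tables were made with pandas 2.3.3 and plots with matplotlib 3.10.9, under Python 3.11.15.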

Additional observations from a re-analysis of the deposited data

Results flagged for a closer look

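For 8 of the 32 tested filament genes, the difference between K57N and WT cells on slide 1, with 1 array per line, was apart from that on slide 2, with 2. This was tested as a line-by-slide term in limma with p adjusted over all probes, and 14.3% of all genes tested passed it. The spread came from the slide 2 pairs alone, so that the p values do not separate a slide effect from a deviation of a single slide 1 array. On slide 2 minus slide 1, the log2 difference changed by 1.73 for NEFH (adjusted p 0.0468), by 1.11 for LMNA (adjusted p 0.0263), by 0.91 for PRPH (adjusted p 0.0283) and by 0.82 for NES (adjusted p 0.0298). Among the keratins it changed by 0.90 for KRT17 (adjusted p 0.0313), by 0.66 for KRT3 (adjusted p 0.0465), by 0.54 for KRT10 (adjusted p 0.0457) and by -1.0 for KRT222 (adjusted p 0.0293). For KRT17 the sign was the same on both slides. The slide differences of KRT14, at 0.16 (adjusted p 0.673), and of KRT79, at -0.66 (adjusted p 0.707), did not pass. For F53S against WT, 0 members passed, beside 0.0885% of all genes.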

How the results depend on the processing

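For K57N against WT, the count of filament genes called lower, 1, became 0 with normexp (where 0.229% of all genes were called lower). It was also 0 with no filter (0.0601%) and with the filter over all 9 arrays (0.598%). The same held with the mean of a gene's probes (0.687%) and with the t-test adjusted (0.13%). The count became 2 with quantile normalization (where 0.729% of all genes were called lower) and with the deposited table (0.661%). It became 3 with the slide block (1.89%) and with the t-test unadjusted (1.54%), and 4 on slide 2 alone (1.31%). The count called higher, 0, became 1 with 2 lines at a time (1.26% of all genes), the slide block (2.6%), slide 2 alone (2.49%) and the t-test unadjusted (2.3%), which was NEFH on slide 2 and otherwise KRT79. Leaving out 1 array gave 0 to 2 lower and 0 to 1 higher, where 44 to 179 and 156 to 347 of the 19209 genes tested were. KRT79 was the one called higher without F53S replicate 1 or 3. With the replicate block, the counts in K57N cells were 3 lower (1.81% of all genes) and 1 higher (2.54%) against WT, and 3 lower (1.01%) against F53S.

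For K57N against F53S, the count called lower, 0, became 3 with the slide block (1.06% of all genes), 1 on slide 2 alone (0.682%) and 2 with the t-test unadjusted (0.838%), and the count called higher, 0, became 1 with the slide block (1.88%), which was KRT79, and on slide 2 alone (1.81%), which was NEFH. The counts for F53S against WT stayed at 0 under every alternative run. The adjusted p of KRT14 for K57N against WT ran from 7.64e-05 to 0.536 over its alternatives. Of 1314 recomputed differences of single genes, 1271 kept their side of the limits, 13 lost their call, all of them KRT14, 30 gained one and 0 reversed while called. The group medians moved by less than the SD between arrays with quantile normalization, and the slide block cannot move a difference in this balanced design. Leaving out arrays was applied to the medians after seeing the data, and the K57N minus WT median changed sign without WT replicate 1 for simple epithelial keratins, hair keratins and lamins, and without K57N replicate 2 for simple epithelial keratins. The causes were not tested. With normexp, whose offset shrinks differences between dim signals, the difference of K57N from WT was -0.87 for KRT42P and 0.75 for KRT79. Signals near background limit KRT9, KRT31, KRT33A, KRT42P, KRT79, KRT80, KRT86, NEFH, the second KRT14 probe and the 37 untested genes.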

Other observations

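Some untested keratins were high on some arrays only, and these were chosen after their values were seen. Both probes of KRT72, a keratin of the inner root sheath, read -1.47 and -2.14 in F53S replicate 3 and were not well above background on the other 8 arrays, where the highest value was -5.89. KRT6B, a stress keratin of epithelia, was well above background in WT replicates 1 and 3, at -3.07 and -2.01, and in F53S replicates 1 and 3, at -2.42 and -4.16, and on no K57N array, where it read -6.48, -6.90 and -7.03. KRT6A read -2.95 in K57N replicate 2 and was not well above background elsewhere. KRT1, the type II keratin of the upper layers of skin, read -2.8 in K57N replicate 1 and -5.55 or less on every other array.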
